A study of Homo sapiens with 16 samples.

Results

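The genes described here are 10 listed negative-feedback genes of MAP kinase signalling: the dual-specificity phosphatase genes DUSP1, DUSP2, DUSP4, DUSP5, DUSP6 and DUSP10, the Sprouty genes SPRY1, SPRY2 and SPRY4, and the Sprouty-related gene SPRED1. They were taken by name, from a list drawn up with earlier results of these data known but by a rule that uses no measured value, and they are 10 of the 35052 genes with matched transcripts. All 10 passed the low-count filter, which left 17559 genes. DUSP2 had at most 4 reads in any library before 3 h and passed through its later time points, so that its call against 0 h follows in part from the filter.

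RNA was sequenced from wild-type K562 cells, an established human leukaemia line, exposed to 25 nM PMA (phorbol 12-myristate 13-acetate), an activator of protein kinase C that drives the line toward a megakaryocyte-like state. Time 0 h is the untreated start, and cells were collected early (0.5 and 1.5 h), in the middle (3 and 6 h) and late (24, 48 and 72 h), with fresh medium after 24 and 48 h. No untreated library of a later time is among the samples analysed here, so time in culture and PMA exposure cannot be told apart at the late time points. Each time point had 2 libraries, 16 in all, and nothing in the labels says that they came from separate cultures, so p-values measure only the spread between these libraries, which may be technical.

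Phorbol esters switch on protein kinase C, which feeds through RAF and MEK to the ERK kinases. ERK then induces its own inhibitors. The dual-specificity phosphatases remove the activating phosphates from the threonine and tyrosine of MAP kinases, and Sprouty and SPRED proteins act further upstream, between receptors, Ras and RAF. In megakaryocyte-like differentiation of K562 cells, lasting ERK activity is known to accompany the response to phorbol esters.

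Promoter windows are shown for members with contrasting time courses, because they let the letters upstream be set beside the values. The source was the RefSeq promoter table on GRCh38.p14, which held 8 of the 10 members in 12 windows. DUSP4 and DUSP5 had no entry in it and were not searched. In the 250 bases before each start, both strands were searched for the cyclic AMP response element TGACGTCA and its shorter core TGACGT, the EGR site GCGNGGGCG, the ETS site CCGGAA, the AP-1 site TGANTCA and the serum response element (CArG box); the core overlaps the full element. The stretches below run 5′ to 3′ on the gene's strand and end before the first annotated start, with every match in capitals: chr5:172771196-172771445 for DUSP1, chr13:80341127-80341376 for SPRY2, chr2:96145441-96145690 for DUSP2 and chr1:221742177-221742339 for DUSP10, all on the minus strand.
DUSP1: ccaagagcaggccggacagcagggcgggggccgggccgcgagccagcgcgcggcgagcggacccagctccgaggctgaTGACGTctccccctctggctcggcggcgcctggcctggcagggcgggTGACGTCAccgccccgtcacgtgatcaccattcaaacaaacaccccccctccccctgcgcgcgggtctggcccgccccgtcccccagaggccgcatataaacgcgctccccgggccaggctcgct
SPRY2: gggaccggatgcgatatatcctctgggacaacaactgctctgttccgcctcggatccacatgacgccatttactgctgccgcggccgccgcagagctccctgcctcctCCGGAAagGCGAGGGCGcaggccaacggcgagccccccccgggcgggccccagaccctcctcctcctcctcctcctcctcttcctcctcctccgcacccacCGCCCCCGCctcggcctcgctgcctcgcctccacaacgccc
DUSP2: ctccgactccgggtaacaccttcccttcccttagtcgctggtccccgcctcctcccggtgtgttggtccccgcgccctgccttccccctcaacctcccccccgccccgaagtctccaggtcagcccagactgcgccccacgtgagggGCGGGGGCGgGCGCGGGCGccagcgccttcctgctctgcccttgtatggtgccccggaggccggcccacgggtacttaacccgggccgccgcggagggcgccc
DUSP10: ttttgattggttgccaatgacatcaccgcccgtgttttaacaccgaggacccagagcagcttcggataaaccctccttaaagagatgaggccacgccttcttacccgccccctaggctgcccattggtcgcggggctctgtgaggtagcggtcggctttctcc

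DUSP1 held the full cyclic AMP response element 125 bases before its start and a separate core 172 bases before it. Of the members searched, it was the one with either, in 1 of the 12 windows, against 1.65% and 7.1% of the 35116 promoters in the table. EGR sites were found in DUSP2 (103 and 93 bases before the start), SPRY2 (134 and 41 bases), SPRY4 (195 bases) and SPRY1 (28 bases, in the second of its windows). They lay in 4 of the 12 windows, against 8.41% of all promoters. The start used for SPRY4 lies 754 bases past the first base of its most-read transcript, SPRY4-201, so that site lies inside the gene. The windows of DUSP6 and SPRED1 and the later ones of DUSP10, SPRY1 and SPRY2 also held no base before the first annotated start. That of SPRY1 ends where its most-read transcript starts. ETS sites were found in SPRY2, 142 bases before the start, and SPRY1, 67 bases before it. They lay in 2 of the 12 windows, against 14.5% of all promoters. Neither an AP-1 site, present in 6.57% of all promoters, nor a CArG box, present in 1.16%, occurred in these 12 windows. The stretch shown for DUSP10 holds no match. The capitals mark letters only.

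Across the course, the 10 genes first passed the test at different time points. DUSP1 and DUSP5 were called higher than at 0 h after 0.5 h, and SPRY2, SPRY4, DUSP10 and DUSP2 joined at 1.5 h. SPRED1 joined at 3 h, and DUSP4, DUSP6 and SPRY1 at 6 h. This is an order of calls, not of changes. SPRY1, with few reads, had a larger fitted log2 fold change at 0.5 h (1.13 ± 0.53, edgeR adjusted p = 0.229) than DUSP1 and DUSP5. The 0.5 h calls and that of DUSP2 at 1.5 h were lost in most fits with a library left out. No member was called lower than at 0 h at any of the 7 time points, although DUSP4 and DUSP6 were at 3 h under alternatives given with their values. By 72 h the fitted rise ran from 3.40-fold in DUSP6 to 174-fold in DUSP5 among the 8 called members with reads at 0 h, while the difference in SPRED1, 0.17 on the log2 scale, did not pass the test (adjusted p = 0.293).

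Those calls came from edgeR's quasi-likelihood test on all 16 libraries, at a Benjamini-Hochberg adjusted p under 0.05, and every comparison with 0 h uses the same pair of 0 h libraries. Of the 10 members, 2 were higher at 0.5 h, where 0.165% of all tested genes were. At 1.5 h, 6 of 10 were higher, against 9.05% of all genes, and at 3 h, 7 of 10 against 21.5%. At 6 h and at 24 h, 10 of 10 were higher, against 27.8% and 31.7% of all genes. At 48 h and at 72 h it was 9 of 10, against 30.2% and 31.7%. From 1.5 h on, each of these counts includes DUSP2, whose calls against 0 h follow in part from the low-count filter. One library stood apart: the 0 h replicate 2 had the shortest fragments, 199 nt by the gap between transcript length and effective length, against 210.2 to 221 nt in the replicate 1 libraries and 229.7 to 249 nt in the other replicate 2 libraries. Without it, the members called at the 7 time points numbered 1, 4, 7, 9, 9, 9 and 9. The members' median log2 fold change was 0.18, 0.76 and 1.60 at 0.5, 1.5 and 3 h, then 2.94, 3.01, 3.09 and 3.11 from 6 to 72 h, while the median over all genes stayed between −0.03 and 0.00. Tested over all 8 time points together, 10 of 10 members differed, as did 82.9% of all genes.

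**Figure D1:**
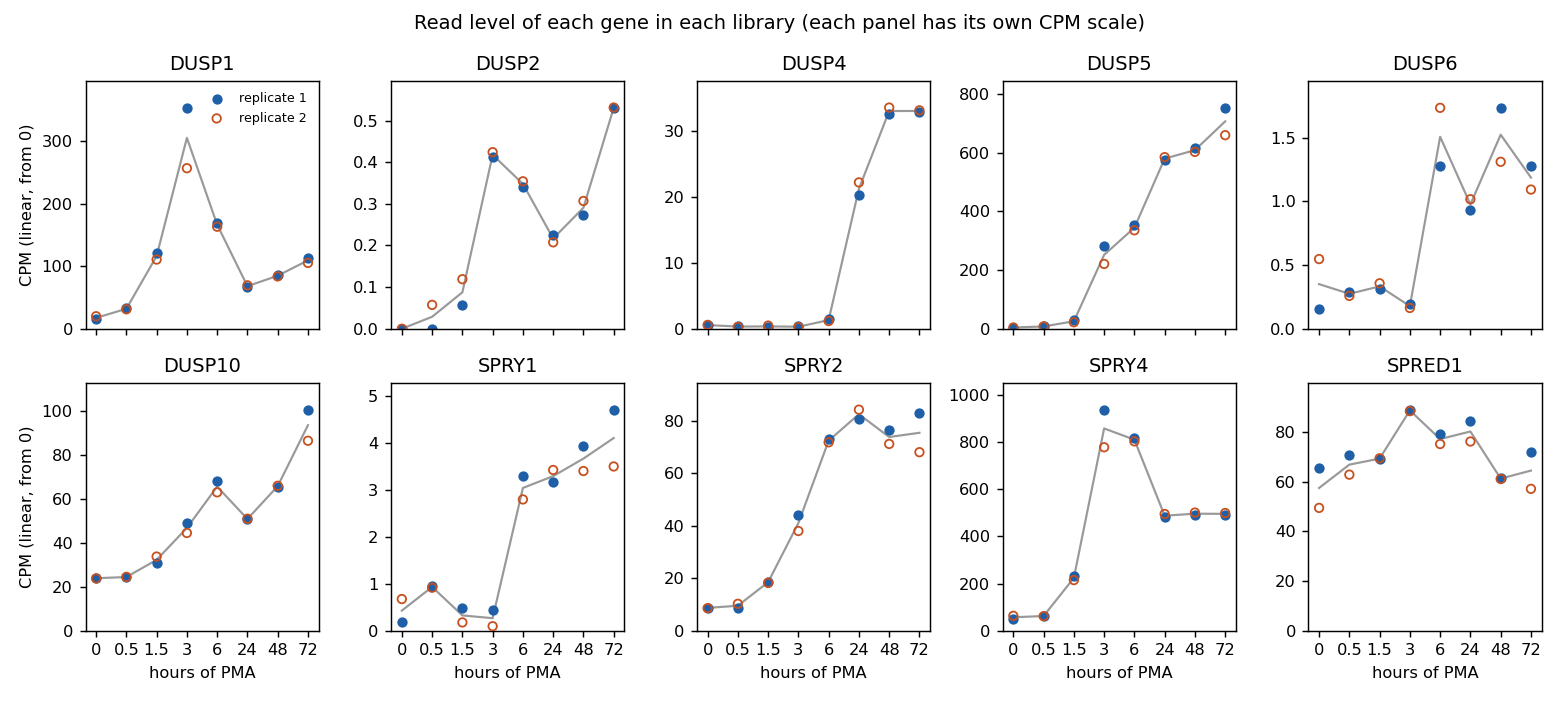
CPM of each of the 10 genes (y axis, linear from 0, with its own scale in each panel) at each time point (x axis, hours of PMA, not to scale), with replicate 1 as filled points, replicate 2 as open points and a line through their mean. DUSP1 reached 354 and 257 CPM at 3 h and fell back, while DUSP5 was highest at 72 h with 753 and 659 CPM.

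DUSP1 (also known as MKP-1; chr5:172768090-172771195, minus strand, GRCh38), a nuclear phosphatase that acts on p38 and JNK as well as ERK, rose and fell back in a pulse. Its read level, in CPM of the TMM-scaled library, was 14.8 and 19.99 at 0 h in replicates 1 and 2, 32.6 and 31.1 at 0.5 h, 122 and 111 at 1.5 h, then 354 and 257 at 3 h. It then stood at 169.9 and 163 CPM at 6 h, 66.8 and 69.5 at 24 h, 86.0 and 83.8 at 48 h, then 114 and 105 at 72 h. Both libraries of each treated time point lay above both 0 h libraries, and both 3 h libraries lay above all others.

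The rise of DUSP1 was 0.87 ± 0.15 (log2 fold change ± SE) at 0.5 h (edgeR adjusted p = 0.0366) and 4.13 ± 0.16 at 3 h (adjusted p = 2.93e-10), a 17.6-fold difference. It fell by 0.88 ± 0.14 from 3 to 6 h (adjusted p = 0.000228) and by 1.29 ± 0.15 from 6 to 24 h (adjusted p = 5.84e-06). At 72 h it still stood 2.65 ± 0.16 above 0 h (adjusted p = 5.1e-09), at 35.8% of its 3 h mean. The later climb from 24 to 48 h, with a log2 difference of 0.32 (adjusted p = 0.166), and from 48 to 72 h, of 0.37 (adjusted p = 0.31), did not pass the test. An annotated antisense gene, AC022217.3, spans the whole of DUSP1 over 3106 nt. It was not analysed here, and whether the counting used strand is not given in the sources used here, so reads from that gene could be among those of DUSP1.

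DUSP5 (chr10:110497838-110511544, plus strand), a nuclear phosphatase with a strong preference for ERK, gave the largest fitted rise of the members with reads at 0 h and did not come back. It went from 3.84 and 4.28 CPM at 0 h to 7.68 and 7.80 at 0.5 h, 28.6 and 22.1 at 1.5 h, then 283 and 221 at 3 h. It continued to 353 and 335 CPM at 6 h, 574 and 584 at 24 h, 614 and 602 at 48 h, then 753 and 659 at 72 h. The libraries of successive time points did not overlap up to 24 h, and those of 24 h lay below those of 48 h and 72 h.

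The log2 fold change of DUSP5 against 0 h was 0.93 ± 0.16 at 0.5 h (edgeR adjusted p = 0.0377), 2.64 ± 0.16 at 1.5 h (adjusted p = 1.27e-07), 5.95 ± 0.17 at 3 h (adjusted p = 1.53e-11) and 7.44 ± 0.18 at 72 h (adjusted p = 7.13e-13). Its steepest step was from 1.5 to 3 h, a 9.93-fold rise (3.31 ± 0.14, adjusted p = 1.74e-09). The steps from 3 to 6 h (0.45 ± 0.13, adjusted p = 0.0123) and from 6 to 24 h (0.75 ± 0.13, adjusted p = 0.000255) were smaller, and those after 24 h did not pass the test. The step from 3 to 6 h was lost without the 3 h replicate 2 (log2 fold change 0.28, adjusted p = 0.131) or the 6 h replicate 1 (0.44, adjusted p = 0.0708).

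The 0.5 h calls of DUSP1 and DUSP5 were close to the threshold. With each of the 16 libraries left out in turn, the DUSP1 call was lost in 12 fits and the DUSP5 call in 11, with adjusted p of 0.00755 to 0.335 and 0.0186 to 0.287. Leaving out the 0.5 h replicate 1 gave 0.335 and 0.269, and leaving out the 0.5 h replicate 2 gave 0.215 and 0.287, with log2 fold changes of 0.84 to 0.95. Both calls were lost when any 1 library of 6, 24, 48 or 72 h was left out (adjusted p of 0.0501 to 0.0742). That of DUSP1 was also lost without either 1.5 h library (0.0606 and 0.0605), and that of DUSP5 without the 0 h replicate 2 (0.225).

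DUSP10 (MKP-5; chr1:221701424-221742176, minus strand), a phosphatase of p38 and JNK rather than ERK, climbed in smaller steps. It measured 24.1 and 23.9 CPM at 0 h, 24.4 and 24.6 at 0.5 h, 30.8 and 33.8 at 1.5 h, then 49.2 and 44.6 at 3 h. After 68.3 and 63.1 CPM at 6 h it dipped to 50.9 and 51.1 at 24 h, then read 65.7 and 66.1 at 48 h, with 101 and 86.6 at 72 h. The 72 h libraries lay above all earlier ones.

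Against 0 h the log2 fold change of DUSP10 was 0.43 ± 0.10 at 1.5 h (edgeR adjusted p = 0.00859), 1.45 ± 0.10 at 6 h (adjusted p = 1.7e-08) and 1.97 ± 0.10 at 72 h (adjusted p = 7.88e-10). The dip from 6 to 24 h was a fall by 0.37 ± 0.09 (adjusted p = 0.00438). Rises of 0.37 ± 0.09 from 24 to 48 h (adjusted p = 0.0155) and 0.51 ± 0.09 from 48 to 72 h (adjusted p = 0.0152) followed. With counts derived from TPM, the fall (−0.297, adjusted p = 0.0502) and both rises (0.356, adjusted p = 0.0718, and 0.539, adjusted p = 0.0637) were not called. Neither were the 1.5 h difference from 0 h (0.345, adjusted p = 0.076) and the 0.5 to 1.5 h step (0.330, adjusted p = 0.169). Both late rises were close to the threshold: that from 24 to 48 h was lost without any of the 4 libraries compared (adjusted p of 0.0872 to 0.101), and that from 48 to 72 h without either 48 h library or the 72 h replicate 1 (0.124 to 0.201). The 1.5 h call was lost without the 0 h replicate 2 (adjusted p = 0.0539) or the 1.5 h replicate 2 (0.094), and the 0.5 to 1.5 h step (0.40 ± 0.10, adjusted p = 0.0224) without any of its 4 libraries (0.0664 to 0.208).

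DUSP4 (MKP-2; chr8:29333064-29350668, minus strand), a nuclear phosphatase of ERK and JNK, was the late member. It stayed at 0.522 and 0.579 CPM at 0 h, 0.396 and 0.258 at 0.5 h, 0.224 and 0.476 at 1.5 h, then 0.384 and 0.228 at 3 h, so that all 6 libraries from 0.5 to 3 h lay below both 0 h libraries. It then reached 1.45 and 1.17 CPM at 6 h, 20.3 and 22.2 at 24 h, 32.5 and 33.6 at 48 h, then 33.0 and 33.2 at 72 h. The 6 h libraries lay above all earlier ones and far below the 24 h libraries.

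The low early values of DUSP4 rested on 7 to 18 reads a library, and the difference at 3 h (log2 fold change −0.81 ± 0.35, edgeR adjusted p = 0.0809) did not pass the test. With libraries scaled to total counts it did, at −1.10 (adjusted p = 0.0139). From 6 to 24 h DUSP4 rose 16.3-fold (4.03 ± 0.21, adjusted p = 5.12e-09), and at 72 h it stood 59.8-fold above 0 h (5.90 ± 0.23, adjusted p = 8.39e-11). The rise from 24 to 48 h (0.64 ± 0.17, adjusted p = 0.0193) was lost without any of its 4 libraries (0.0688 to 0.134), and 48 and 72 h gave a log2 difference of 0.00 ± 0.16 (adjusted p = 1).

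DUSP6 (MKP-3; chr12:89347232-89353271, minus strand), the cytoplasmic ERK phosphatase often used as a readout of ERK signalling, was barely read in these cells. Its libraries held 5 to 56.9 estimated reads. It measured 0.153 and 0.547 CPM at 0 h, 0.290 and 0.258 at 0.5 h, 0.308 and 0.357 at 1.5 h, then 0.192 and 0.163 at 3 h. From 6 h on it measured 1.28 and 1.74 CPM, 0.936 and 1.02 at 24 h, 1.74 and 1.31 at 48 h, then 1.28 and 1.09 at 72 h. All libraries from 6 h on lay above all earlier ones, but the 0 h pair lay far apart.

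The rise of DUSP6 was 2.11 ± 0.41 at 6 h (edgeR adjusted p = 0.00053), a 4.32-fold difference, and 1.76 ± 0.41 at 72 h (adjusted p = 0.00214). From 3 to 6 h it was 3.06 ± 0.45 (adjusted p = 9.59e-05). The size of the rise turned on the 0 h pair, although these calls held. Without the 0 h replicate 1, DUSP6 was 2.76-fold higher at 6 h, with 2.78-fold at 48 h, and then 2.17-fold higher at 72 h. Without the 0 h replicate 2 these became 9.64-fold, 9.71-fold and 7.59-fold. The 24 h call (1.49 ± 0.42, adjusted p = 0.00729) was lost without the 0 h replicate 1 (0.84, adjusted p = 0.0716) and was 2.65 without the 0 h replicate 2. At 3 h the difference did not pass the test (−0.95 ± 0.53, adjusted p = 0.17), but DUSP6 was called lower there without the 0 h replicate 1 (−1.60, adjusted p = 0.0105) and with counts derived from TPM (−1.71, adjusted p = 0.0332), and stood at 0.21 without the 0 h replicate 2 (adjusted p = 0.868). With counts derived from TPM, the calls against 0 h were lost at 6 h (log2 fold change 0.97, adjusted p = 0.118), 48 h (0.48, adjusted p = 0.455) and 72 h (0.96, adjusted p = 0.115), and at 24 h the direction turned (−0.15, adjusted p = 0.827). Salmon's split of these few reads differed over time: at 0 h the full-length transcript DUSP6-201 of 3627 nt held 0 and 2.0 reads and the shorter DUSP6-202 and DUSP6-204 of 1959 and 1074 nt the others save 1.6 reads, whereas at 24 h DUSP6-201 held all 29 and 49 reads. In CPM as in TPM, DUSP6 thus stayed low beside its relatives, and its rise from 0 h depended on how reads were turned into a level.

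DUSP2 (PAC-1; chr2:96143166-96145440, minus strand), a nuclear phosphatase best known from activated leukocytes, had no read in either 0 h library. It had 0 and 2 reads at 0.5 h, 2 and 4 at 1.5 h, 15 and 13 at 3 h, 8 and 10 at 6 h, 7 and 10 at 24 h, 9 and 11 at 48 h, then 19 and 17 at 72 h. Against a floor of 3 reads in a library, taken at its higher value of the 0 h pair (0.0966 CPM in replicate 2, 0.0921 in replicate 1), its mean at 3 h was at least 4.32-fold higher. The bound was 2.24-fold for 24 h and 5.49-fold for 72 h. At 0.5 and 1.5 h its mean lay under that floor, so no fold is given. It was called from 3 h (edgeR adjusted p = 0.000229) to 72 h (adjusted p = 5.73e-05). DUSP2 passed the low-count filter through its later time points. Its calls here and its step from 1.5 to 3 h therefore follow in part from that filter. Its 1.5 h call (adjusted p = 0.0447, from 2 and 4 reads) was lost in 14 of 16 fits that left out a library (0.043 to 0.217), the exceptions being those without a 0.5 h library. Its step from 1.5 to 3 h (2.22 ± 0.59, adjusted p = 0.0125) was lost without the 1.5 h replicate 1 (0.123) and was 7.04-fold, in place of 4.66-fold, without the 1.5 h replicate 2 (0.0377).

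**Figure D2:**
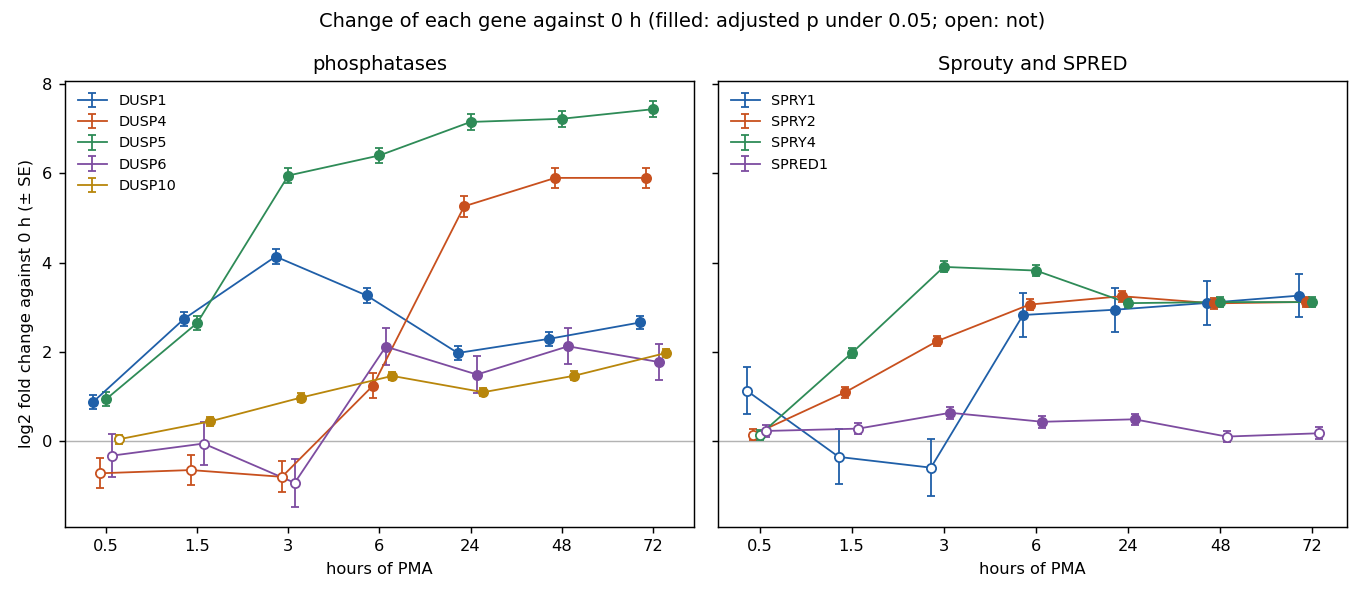
Log2 fold change against 0 h (y axis) with its standard error at each treated time point (x axis, hours of PMA, not to scale), for phosphatases on the left and Sprouty and SPRED genes on the right; filled points had an edgeR adjusted p under 0.05, and DUSP2, with no read at 0 h, is left out. At 72 h SPRY1, SPRY2 and SPRY4 stand at 3.26, 3.12 and 3.11, whereas SPRED1 stands at 0.17. The SPRY1 value was 2.60 without the 0 h replicate 1 and 4.45 without the 0 h replicate 2.

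SPRY4 (chr5:142310427-142326455, minus strand), a Sprouty protein that restrains Ras and RAF activation, had the highest mean TPM of the 10 genes from 0 to 6 h, although its libraries overlapped those of DUSP1 at 0.5 and 1.5 h. It measured 51.4 and 63.3 CPM at 0 h, 63.4 and 61.7 at 0.5 h, 233 and 215 at 1.5 h, then 937 and 778 at 3 h. It held 817 and 803 CPM at 6 h, then 480.2 and 495 at 24 h, 492 and 501 at 48 h, then 492 and 499 at 72 h. The 3 and 6 h libraries overlapped, the 24 to 72 h libraries fell in a narrow band below them, and that band lay above every library up to 1.5 h.

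SPRY4 showed no call at 0.5 h (log2 fold change 0.12 ± 0.11, edgeR adjusted p = 0.529). It rose by 1.97 ± 0.12 at 1.5 h (adjusted p = 1.07e-07) and by 3.90 ± 0.12 at 3 h (adjusted p = 3.75e-11), a 15.0-fold difference. It fell by 0.73 ± 0.11 from 6 to 24 h (adjusted p = 7.72e-05) and stood 8.64-fold above 0 h at 72 h (3.11 ± 0.12, adjusted p = 6.15e-11), at 57.8% of its 3 h mean. The steps from 24 to 48 h (0.03, adjusted p = 0.914) and from 48 to 72 h (0.00, adjusted p = 1) did not pass the test.

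SPRY2 (chr13:80335976-80340951, minus strand), a Sprouty protein that binds the adaptor GRB2 and the ubiquitin ligase CBL, rose without a pulse. It measured 8.81 and 8.63 CPM at 0 h, 8.85 and 10.3 at 0.5 h, 18.8 and 18.3 at 1.5 h, then 44.1 and 38.1 at 3 h. It then measured 73.2 and 71.9 CPM at 6 h, 80.9 and 84.4 at 24 h, 76.5 and 71.3 at 48 h, then 82.9 and 68.1 at 72 h. The 8 libraries from 6 to 72 h lay within 68.1 to 84.4 CPM, above all libraries up to 3 h.

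The log2 fold change of SPRY2 was 1.09 ± 0.12 at 1.5 h (edgeR adjusted p = 4.88e-05), 3.06 ± 0.12 at 6 h (adjusted p = 1.14e-10) and 3.12 ± 0.12 at 72 h (adjusted p = 7.23e-11). No step after 6 h passed the test (adjusted p of 0.15, 0.36 and 0.969). The step from 6 to 24 h (0.19) was called with libraries scaled to total counts (0.31, adjusted p = 0.016).

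SPRY1 (chr4:123396795-123403760, plus strand), a Sprouty protein of receptor tyrosine kinase signalling, stayed low and switched level between 3 and 6 h. It measured 0.184 and 0.676 CPM at 0 h, 0.951 and 0.917 at 0.5 h, 0.476 and 0.178 at 1.5 h, then 0.439 and 0.0979 at 3 h. From 6 h it measured 3.29 and 2.80 CPM, 3.16 and 3.42 at 24 h, 3.93 and 3.40 at 48 h, then 4.71 and 3.50 at 72 h. All libraries from 6 h lay above all earlier ones, and the 0, 1.5 and 3 h libraries overlapped. From 3 to 6 h SPRY1 rose 10.8-fold (3.43 ± 0.53, edgeR adjusted p = 0.000131), and it was 9.57-fold above 0 h at 72 h (3.26 ± 0.49, adjusted p = 5.85e-05). These sizes turned on single libraries with few reads, although the calls held. The step was 29.9-fold without the 3 h replicate 1 and 6.86-fold without the 3 h replicate 2. Against 0 h the rise ran from 4.47-fold at 6 h to 6.06-fold at 72 h without the 0 h replicate 1, and from 16.1-fold to 21.9-fold without the 0 h replicate 2. Set against 3 h, SPRY1 was 14.6-fold higher at 72 h (3.86 ± 0.52, adjusted p = 2.09e-05), 40.6-fold without the 3 h replicate 1 and 9.30-fold without the 3 h replicate 2. The higher pair at 0.5 h did not pass the test (1.13 ± 0.53, adjusted p = 0.229), although it did with no low-count filter (1.14, adjusted p = 0.0319).

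SPRED1 (chr15:38252326-38357249, plus strand), which brings the Ras inactivator neurofibromin to the membrane, moved least. It measured 65.5 and 49.4 CPM at 0 h, 70.9 and 62.8 at 0.5 h, 69.2 and 69.4 at 1.5 h, then 89.0 and 88.4 at 3 h. It then measured 79.1 and 75.1 CPM at 6 h, 84.2 and 76.1 at 24 h, 61.4 and 61.1 at 48 h, then 71.8 and 57.1 at 72 h. The 3 h libraries lay above all others, while the 48 and 72 h libraries overlapped the range of the 0 h pair.

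SPRED1 was 1.54-fold above 0 h at 3 h (log2 fold change 0.63 ± 0.13, edgeR adjusted p = 0.00158). The rises at 6 h (0.42 ± 0.13, adjusted p = 0.0128) and 24 h (0.48 ± 0.13, adjusted p = 0.00633) were lost without the 0 h replicate 2, the lower 0 h library (0.23, adjusted p = 0.152, and 0.30, adjusted p = 0.071). The 6 h call was also lost without the 6 h replicate 1 (0.40, adjusted p = 0.0775). With libraries scaled to total counts, the log2 fold changes at 3, 6 and 24 h were 0.34 (adjusted p = 0.0514), 0.06 (0.75) and 0.23 (0.153). Without the 0 h replicate 1, SPRED1 was called higher at 0.5 h (0.44, adjusted p = 0.0338), 1.5 h (0.49, adjusted p = 0.0154) and 72 h (0.39, adjusted p = 0.0229), so its calls turned on which 0 h library was used. From 3 to 72 h it fell by 0.46 ± 0.13 (adjusted p = 0.00791), a call lost without the 72 h replicate 2 (−0.30, adjusted p = 0.0916).

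Steps between neighbouring time points place the turning points and do not compare with the 0 h libraries. These still enter the filter, the scaling and the shared spread of the fit. From 0.5 to 1.5 h, 5 members rose (DUSP1, DUSP5, DUSP10, SPRY2 and SPRY4), against 4.11% of all genes. From 1.5 to 3 h, 6 rose, the same 5 and DUSP2, against 13.0%. The DUSP2 call in this step follows in part from the low-count filter. From 3 to 6 h, 6 rose, against 19.0%: DUSP4, DUSP5, DUSP6, DUSP10, SPRY1 and SPRY2. DUSP1 was the 1 member that fell then, against 22.1%.

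From 6 to 24 h, 2 rose (DUSP4 and DUSP5), against 30.8% of all genes, and 3 fell (DUSP1, DUSP10 and SPRY4), against 25.8%, shares near the background. From 24 to 48 h, DUSP4 and DUSP10 rose, against 8.88%, and from 48 to 72 h DUSP10 alone, against 1.14%. Set against 3 h, 72 h had 6 members higher (DUSP4, DUSP5, DUSP6, DUSP10, SPRY1 and SPRY2), against 30.5%. It had 3 lower (DUSP1, SPRY4 and SPRED1), against 27.6%, a share near the background. By mean CPM, DUSP1, SPRY4 and SPRED1 were highest at 3 h and the other members at 24 h or later. For SPRY4 the step from 3 to 6 h did not pass the test (log2 fold change −0.08, edgeR adjusted p = 0.601). In replicate 2 alone, SPRY4 was highest at 6 h and so was DUSP6.

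Levels between genes were compared in TPM, the deposited abundance per transcript length. At 0 h the order was SPRY4 (25.3 TPM), SPRED1 (19.6), DUSP10 (17.0), DUSP1 (14.0), SPRY2 (6.01) and DUSP5 (2.62), with SPRY1, DUSP6, DUSP4 and DUSP2 below 1 TPM. Of these, SPRY1 and DUSP6 overlapped in their libraries. At 3 h SPRY4 (296.6), DUSP1 (205.5) and DUSP5 (135.4) led, and the others were at or below 26.7 TPM.

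At 72 h the order was DUSP5 (476.9 TPM), SPRY4 (203.6), DUSP1 (92.6), DUSP10 (67.2), SPRY2 (53.8), SPRED1 (18.9), DUSP4 (9.64), SPRY1 (4.27), DUSP6 (0.932) and DUSP2 (0.549), with no neighbours overlapping. The sum over the 10 genes was 83.0 and 88.7 TPM at 0 h, 767 and 659.9 at 3 h, then 958 and 898 at 72 h. SPRY4 held 40.5% and 42.8% of that sum at 3 h, and DUSP1 30.2% and 27.2%. At 72 h DUSP5 held 53.0% and 49.6%, after 3.13% and 2.98% at 0 h. Among these 10 genes, the highest summed TPM thus passed from SPRY4 to DUSP5 between 6 and 24 h. The sums take in transcripts that code for no protein. For SPRY4 these include the retained-intron transcript SPRY4-206, with 42.4% and 47.2% of the gene's estimated reads at 1.5 h. The order by coding transcripts alone was not compared.

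**Figure D3:**
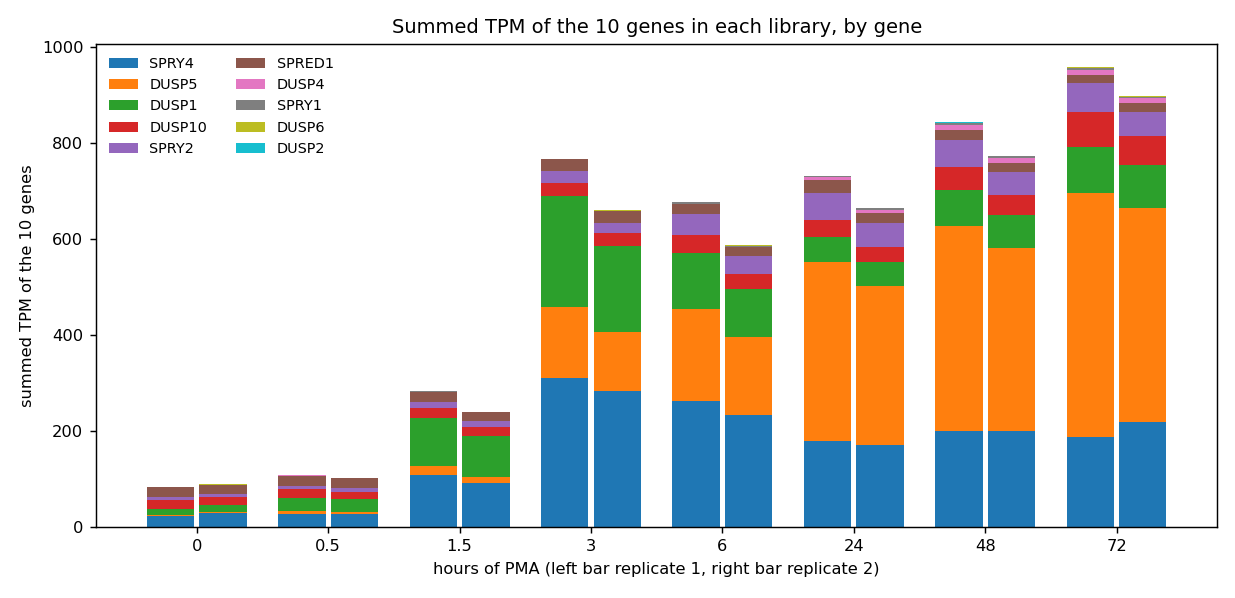
Summed TPM of the 10 genes (y axis, from 0) in each library at each time point (x axis, hours of PMA, not to scale; left bar replicate 1, right bar replicate 2), with each gene as a coloured part of the bar. The bars rise from 83.0 and 88.7 TPM at 0 h to 958 and 898 TPM at 72 h, and the DUSP5 part grows to 53.0% and 49.6% of the bar.

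The transcripts of SPRY4 shifted as the gene rose. SPRY4-206, a single-exon retained-intron transcript of 5349 nt, held 35.9% and 19.9% of the gene's estimated reads at 0 h, 41.8% and 36.2% at 0.5 h, then 42.4% and 47.2% at 1.5 h. Its share was 24.1% and 36.8% at 3 h, 20.5% and 20.8% at 6 h, and 13.8% to 19.5% in the 6 libraries from 24 to 72 h. Both 1.5 h libraries lay above all libraries of other time points, and the 0 h pair spanned a wide range. The main coding transcript SPRY4-201 went the other way, from 45.7% and 41.2% at 1.5 h to 70.6% and 67.7% at 6 h. Salmon divides reads shared between overlapping transcripts, so these shares were not tested, and unspliced RNA and SPRY4-206 cannot be told apart in them.

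**Figure D4:**
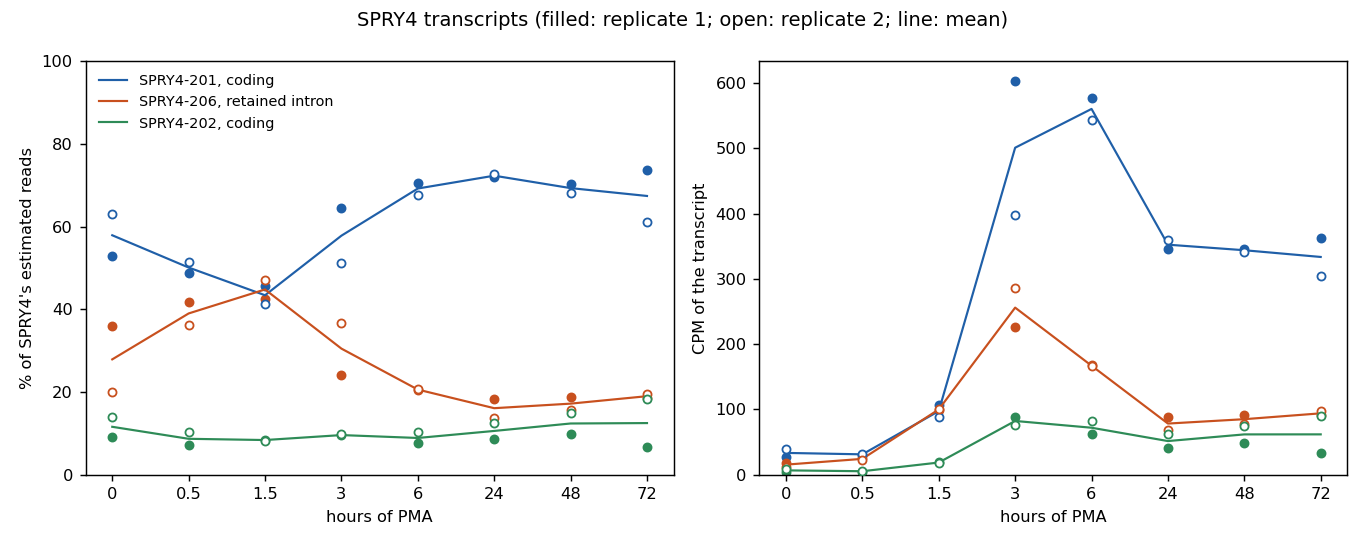
Share of SPRY4's estimated reads held by each transcript (left, percent) and CPM of each transcript (right), by hours of PMA (x axis, not to scale), with replicate 1 filled, replicate 2 open and lines through the means. The retained-intron transcript SPRY4-206 peaks in share at 1.5 h (42.4% and 47.2%), before the coding SPRY4-201 reaches 70.6% and 67.7% at 6 h.

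For the other members with at least 100 reads a library, a single transcript carried most reads. DUSP5-201 held at least 99.2% of the gene's estimated reads, DUSP10-201 at least 91.0%, SPRED1-201 at least 90.5% and SPRY2-202 at least 79.7%. The reads of SPRY1 were more mixed, and its leading transcript held 54.1% to 74.2% of them from 24 to 72 h. Antisense genes also overlap SPRY4 (SPRY4-AS1, over 1163 nt) and DUSP6 (AC024909.2, over 2257 nt). They were not analysed here.

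Among the members, time courses of 8 means of log2(CPM + 1) were most alike for DUSP5 and SPRY2 (Pearson r = 0.99), then DUSP6 and SPRY1 (0.939) and DUSP5 and DUSP10 (0.938). DUSP1 was closest to SPRY4 (0.891), and DUSP4 and SPRED1 went apart (−0.187). These values describe 8 points from shared libraries and carry no test. Over 12499 genes changed at any time with a mean of at least 1 CPM, those most like each member included FOSL2 (0.9959) for SPRY4, DYNLL2 (0.9956) and ELL2 (0.9947) for SPRY2, and CCR7 (0.9941) and WDR26 (0.9934) for DUSP5. For DUSP4 they were CORO2B (0.9989) and GALNT6 (0.9982), for DUSP1 ZNF432 (0.9824) and NRBF2 (0.9750), and for DUSP10 ATP1B1 (0.9888) and ZNF699 (0.9812). For SPRY1 they were TEX2 (0.9919) and C12orf4 (0.9898), for DUSP6 PLA2G15 (0.9814) and ZDHHC14 (0.9800), for DUSP2 MTMR11 (0.9763) and CLU (0.9672), and for SPRED1 SNRPB2 (0.9835) and C11orf58 (0.9688). The order depends on the measure. With a pseudocount of 0.1, CORO2B and GALNT6 ranked 43 and 21 for DUSP4, while the others named ranked 1 to 9 for their members. By Spearman's rho CORO2B and GALNT6 ranked 785 and 80, and the others ranked from 1 (ZNF699 and ZDHHC14) to 1343 (ELL2).

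Relatives outside the 10 genes did not all follow them. Of 4 other MAP kinase phosphatases, 2 were called higher and 2 lower at 3 h (21.5% and 20.5% of all genes) and again at 72 h (31.7% and 26.9%). DUSP9 (MKP-4), a cytoplasmic ERK phosphatase, fell to 0.641 ± 0.198 CPM (SD, n = 2) at 72 h, after 7.59 ± 1.83 at 0 h (log2 fold change −3.57 ± 0.27, edgeR adjusted p = 5.74e-08). DUSP7, another cytoplasmic ERK phosphatase, fell by 1.39 ± 0.18 at 3 h (adjusted p = 3.14e-05) and was 1.01 ± 0.17 above 0 h at 72 h (adjusted p = 0.000172). DUSP8, a phosphatase of JNK and p38, rose by 2.99 ± 0.45 at 6 h (adjusted p = 6e-05), and DUSP16, which acts on JNK, rose by 1.04 ± 0.11 at 1.5 h (adjusted p = 2.43e-05) and stood 0.57 ± 0.11 below 0 h at 72 h (−0.57, adjusted p = 0.000396).

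The 3 other Sprouty and SPRED genes were all called higher at 72 h, where 31.7% of all genes were. At 3 h 2 of the 3 were, against 21.5% of all genes. SPRED3 rose early, from 5.33 ± 0.02 CPM at 0 h to 27.9 ± 2.3 at 3 h (log2 fold change 2.39 ± 0.14, edgeR adjusted p = 1.12e-08). SPRED2, the family member with the most reads, rose by 1.04 ± 0.09 at 24 h (adjusted p = 2.86e-07). SPRY3 rose late, by 2.46 ± 0.28 at 72 h, from 0.537 ± 0.151 to 2.96 ± 0.34 CPM (adjusted p = 3.64e-06).

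**Figure D5:**
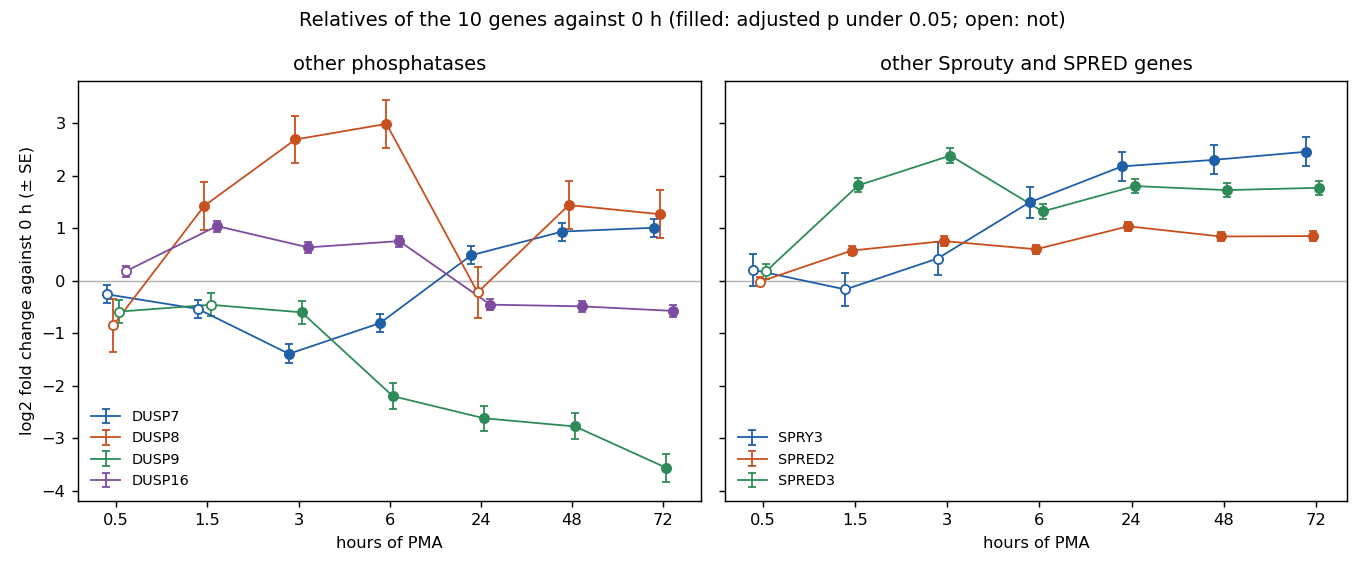
Log2 fold change against 0 h (y axis) with its standard error at each treated time point (x axis, hours of PMA, not to scale) for 4 other MAP kinase phosphatases (left) and 3 other Sprouty and SPRED genes (right); filled points had an edgeR adjusted p under 0.05. DUSP9 falls to −3.57 at 72 h, while SPRY3 and SPRED3 stand at 2.46 and 1.77.

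Other inhibitors of the pathway were counted from a list of 20 feedback and Ras-inactivating genes, of which 19 were tested (DAB2IP was not). At 3 h 5 were higher and 3 lower, near the 21.5% and 20.5% of all genes, with a median log2 fold change of 0.11. At 72 h 15 were higher and 1 lower, against 31.7% and 26.9% of all genes, with a median of 1.34, beside −0.03 over all genes. ERRFI1, an inhibitor of the EGF receptor, rose from 1.36 ± 0.24 to 135.0 ± 0.4 CPM at 6 h (6.62 ± 0.16, edgeR adjusted p = 1.15e-12). RASAL1, a Ras inactivator, rose by 6.57 ± 0.32 at 72 h from 4 to 5 reads a library (adjusted p = 7.74e-10), and PTPRE, a tyrosine phosphatase, by 4.47 ± 0.29 at 72 h (adjusted p = 1.34e-08). SH2B3, an adaptor that restrains cytokine receptors and the list's most-read gene, rose by 1.69 ± 0.10 at 24 h (adjusted p = 4.37e-09).

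Of 27 tested genes of the ERK cascade, which these proteins restrain, 7 were higher and 6 lower at 3 h, beside 21.5% and 20.5% of all genes, and 9 higher and 10 lower at 72 h, beside 31.7% and 26.9%. Nothing is read from counts this near the background. The medians were −0.07 and −0.06. Scaling to total counts moved the median of all genes to −0.28 at 3 h and −0.19 at 72 h, so no direction is read from list medians this close to 0. RASGRP3, an exchange factor that responds to phorbol esters, rose by 2.85 ± 0.13 at 72 h (edgeR adjusted p = 3.22e-10), RPS6KA2, a kinase downstream of ERK, by 3.24 ± 0.24 at 72 h (adjusted p = 5.03e-08), and RASGRP2, an exchange factor for Rap, fell by 2.33 ± 0.23 at 6 h (−2.33, adjusted p = 8.93e-07).

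Of 15 JNK and p38 cascade kinases, 4 were higher and 4 lower at 3 h, and 6 higher and 3 lower at 72 h, with medians of 0.12 and 0.09. These counts, too, lie near the 21.5% and 20.5% of all genes at 3 h and the 31.7% and 26.9% at 72 h. The p38 kinase gene MAPK12 fell by 2.20 ± 0.15 (−2.20, edgeR adjusted p = 2.06e-08) and MAPK13 rose by 1.81 ± 0.19 (adjusted p = 1.76e-06), both at 72 h. MAPKAPK2, a kinase activated by p38, rose by 1.74 ± 0.13 at 6 h (adjusted p = 5.26e-08).

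Transcripts known to respond to ERK were mostly higher. Of 22 tested (IER3 was not), 17 were higher and 2 lower at 3 h, against 21.5% and 20.5% of all genes, with a median of 2.93. At 72 h 18 were higher and 1 lower, against 31.7% and 26.9%, with a median of 2.06. EGR1, a zinc-finger factor induced by ERK, rose by 4.59 ± 0.22 at 6 h, from 146.5 ± 40.5 to 3516 ± 353 CPM (edgeR adjusted p = 5.88e-10), and EGR3 and EGR2, its relatives, by 11.64 ± 0.22 and 10.41 ± 0.19 at 6 h from 3 to 7 reads a library (adjusted p = 3.1e-13 for both). PHLDA1, an early ERK target, rose by 7.55 ± 0.15 at 6 h (adjusted p = 3.1e-13).

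Library totals ran from 27285773 to 54056289 estimated reads, and 3 reads equalled 0.0921 and 0.0966 CPM in the 0 h libraries. Markers of K562 and erythroid cells were read in all libraries, 12 of 12 above 1 CPM, summing to 2189 to 2569 CPM at 0 h and 1624 to 2081 at 72 h. Over all libraries the sum ran from 1296 to 2569 CPM. Single markers ranged more widely: KLF1 from 1.32 to 61.4 CPM, GATA1 from 9.30 to 155 and the most-read, HBG2, from 422 to 973. Megakaryocyte markers summed to 54.7 to 64.5 CPM at 0 h and 1113 to 1276 at 72 h, mostly through ITGB3, while GP1BA, GP9 and PF4 had at most 5 reads. Over all libraries the summed markers of T cells lay at 11.7 to 23.7 CPM, of B cells at 1.15 to 2.73, of monocytes at 45.0 to 90.5 (mostly LYZ) and of epithelium at 19.0 to 87.2. Fibroblast markers summed to 10.9 to 13.0 CPM at 0 h and 217 to 235 at 72 h, mostly through COL1A1, beside the late rise of DUSP4. The part of these in the members' changes was not tested. In bulk RNA, fewer cells with a transcript and less of it per cell cannot be told apart.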

How the data were processed

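Libraries were made from total RNA after ribosomal depletion, per the labels' protocols. The submitters' processing notes name Trim Galore 0.4.3 and Salmon, with hg19 and hg38 among the builds and no role given. Per the file headers, each deposited table gives an estimated count of reads and a TPM value per transcript, in the column layout that salmon writes. The deposited estimated counts carry no normalization. TPM is relative to effective length and to all transcripts.

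Transcripts were matched by Ensembl ID without version to GENCODE release 29 (167027 of 177456, 94.1%, in 35052 genes). The unmatched ones held 3.01 to 3.75% of reads and were left out. Counts were summed per gene, rounded and tested with edgeR 4.0.16 in R 4.3.3 (TMM, filterByExpr, glmQLFit and glmQLFTest, prior count 0.125, Benjamini-Hochberg over 17559 genes), with all 8 time points in 1 fit (common biological coefficient of variation 0.123, 8 residual and 5.28 prior degrees of freedom). The procedure was tested on simulated data. Standard errors are the absolute log2 fold change fitted without the prior count, divided by the square root of F. The log2 fold changes given include the prior count. With 2 libraries a group, an exact permutation test could not pass 0.05, so calls rest on the spread shared across genes. A floor of 3 reads allows for counting error alone, because PCR copies are not separate molecules.

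The members and lists were chosen with earlier results of these data known. All members are named. From each list, up to 3 called genes with the largest change and a mean of at least 1 CPM are named, and the most-read gene. For each member, the 2 genes with the highest correlation are named, and transcripts with at least 10% of a gene's reads. Alternatives were other size factors, total-count scaling, other filters and thresholds, counts derived from TPM, coding transcripts alone, DESeq2 1.42.0, GC trends removed, a replicate block, pairs of time points alone and each library left out. Protein sequences were not used here, and some genes that these rules name are not reported here.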

Additional observations from a re-analysis of the deposited data

How the results depend on the processing

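Over 3994 values recomputed under the alternatives, 1 called value reversed: DUSP6 at 24 h against 0 h, to −0.148 on the log2 scale with counts derived from TPM (adjusted p = 0.827). Counts of members called that moved by over 1.5 times were as follows. With at least 10 counts in every library, which only 6 members pass, 10 became 6 at 6 and 24 h against 0 h and at any time, 9 became 5 at 48 and 72 h, 7 became 4 from 3 to 6 h and 2 became 1 from 24 to 48 h; the fewer genes tested account for this. Tested against a 1.5-fold change, 7 became 4 from 3 to 6 h, 5 became 2 from 6 to 24 h, and 0 were left at 0.5 h and in both steps after 24 h. An adjusted p under 0.01 also left 0 in these last 3 comparisons. With only the 2 time points compared, 0.5 h had 0, 24 to 48 h had 4 and 48 to 72 h had 0. Counts derived from TPM gave 1 from 24 to 48 h and 0 from 48 to 72 h. With 1 library left out, where a lone library is assumed to vary like the others, the count was 0 to 3 at 0.5 h, 0 to 3 from 24 to 48 h, and 0 to 1 from 48 to 72 h. Where no construction is named, the cause was not tested.

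Scaling to total counts moved the median log2 fold change of all genes from 0.00 to −0.28 at 3 h and from −0.03 to −0.19 at 72 h. Of all calls, 27.4% were then higher at 3 h, in place of 51.2%, and 44.5% at 72 h, in place of 54%. The members higher went from 7 to 6 at 3 h, with DUSP4 called lower, and stayed 9 at 72 h. The labels tie a replicate number to no shared culture or day, and the numbers were not used as a block in the reported values. Same-numbered libraries nevertheless deviated together at most pairs of time points. Over 9983 genes, deviations of same-numbered libraries correlated at −0.3 to 0.6 (median 0.27), with 24 of 28 pairs of time points over 0.1. With a replicate block the counts against 0 h were 2, 5, 7, 10, 10, 9 and 9. It lost DUSP2 at 1.5 h (adjusted p = 0.05) and added SPRED1 as higher from 1.5 to 3 h (0.022) and lower from 24 to 48 h (0.0233), and changed no other call. With GC trends removed as well, the block gave 4 from 24 to 48 h and 2 from 48 to 72 h. DUSP2 had at most 19 reads a library, and of the members with reads at 0 h, SPRY1 and DUSP6 had the largest standard errors against 0 h.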
